A study of Mus musculus with 12 samples.

Results

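The Nrf2 antioxidant response was followed here through 10 genes in mouse liver: Nfe2l2, which encodes the transcription factor Nrf2, its repressor Keap1, and the target genes Nqo1, Gclc, Gclm, Srxn1, Txnrd1, Hmox1, Gsr and Slc7a11. The genes were taken as a list of named pathway members, drawn up with earlier results of these data known, and each was found as a row of the count table, which held 55401 genes. Of these 10 genes, 9 passed the filter on low counts and were among the 13205 genes tested, whereas Slc7a11 did not pass it.

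Keap1 is an adaptor that hands Nrf2 to a ubiquitin ligase, so that in unstressed cells the protein is made and quickly destroyed. Oxidants and electrophiles modify cysteines of Keap1, Nrf2 escapes destruction, enters the nucleus, pairs with a small Maf protein and binds antioxidant response elements near its target genes. Because the control is mainly on the protein, target transcripts are the usual RNA readout of the pathway. In liver these targets supply glutathione, reduce thioredoxin and quinones, degrade haem and help to clear reactive drug products.

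RNA was measured by sequencing in whole livers of 12 female mice at 15 weeks of age, 6 of them iTgMir483 mice and 6 littermate controls. The iTgMir483 mice have the microRNA gene Mir483 inserted at Rosa26 under Tet-off control, so that doxycycline silences it. In the postnatal scheme of the study, doxycycline was given to pregnant dams and then withdrawn, so that the transgene was active after birth. The mice were on a C57BL/6J background, and all 12 libraries carry the name of a cross with the CMV-Cre line, a ubiquitous deleter used to remove the selection cassette of the transgene. The labels call the other genotype only control, so whether those mice carried Cre or an inactive transgene is not given in the sources used here. The transgene is not limited to hepatocytes, so effects of Mir483 in the liver and in other organs cannot be told apart.

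Control libraries held 12244123 to 30431286 counts and iTgMir483 libraries 12415140 to 15846175. Mir483 itself had 0 counts in all 6 control libraries and 318 to 761 counts in the iTgMir483 libraries, as the labels require. Levels are given in CPM, counts divided by the library total after TMM adjustment for library composition and brought to a common total. Fold changes are iTgMir483 over control, with adjusted p from edgeR's quasi-likelihood test over all genes tested. A gene was counted as changed at an adjusted p under 0.05 with a fold change over 1.5. Nothing in the labels ties libraries to separate litters or days, so each p measures the spread between these mice.

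The antioxidant response genes did not move together. Hmox1, haem oxygenase 1, rose 2.22-fold, Nfe2l2 was modestly higher and Txnrd1 was modestly lower. The classical targets Nqo1, Gclm and Srxn1 differed by less than the SD between livers, and Gsr and Keap1 did not pass the test. Gclc had the lowest estimate, 0.680-fold, but varied widely between livers and did not pass either. Of the 9 genes tested, 1 was counted as changed, which is 11.1% of them, and 11.1% of all genes tested were counted as changed. By direction, 8.41% of all genes were higher and 2.73% were lower, against 1 and 0 of these 9. The median log2 fold change of the 9 genes was 0.02, and that of all genes tested was 0.01. A total of 3 of the 9 (Nfe2l2, Txnrd1 and Hmox1) passed the adjusted p without regard to the fold, as did 18.6% of all genes tested. The groups did not overlap for 2 of the 9, Hmox1 and Txnrd1, where 7.92% of all genes tested showed no overlap.

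**Figure D1:**
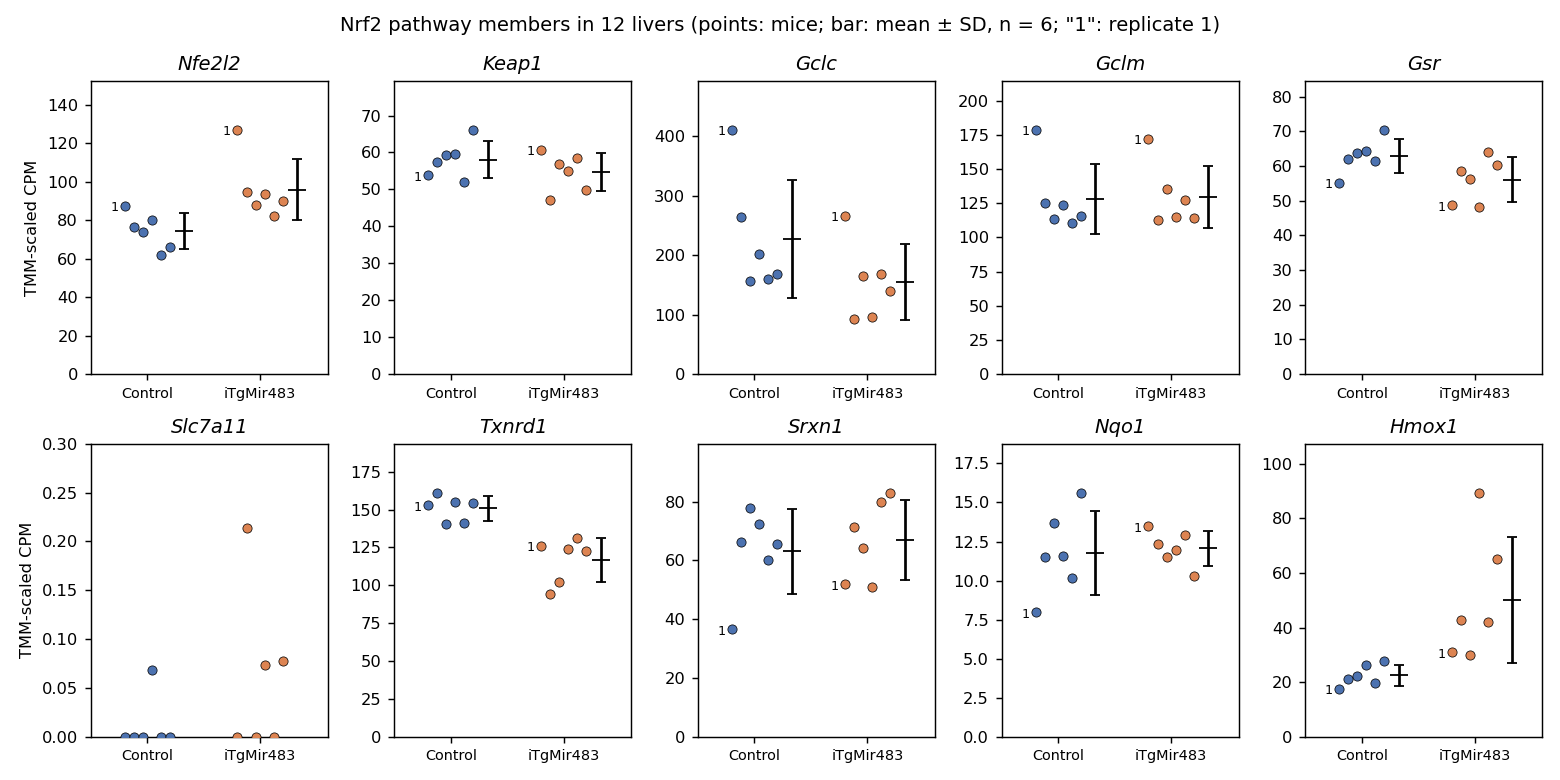
Level of each of the 10 genes in CPM (vertical axes, linear, from 0) in 6 control and 6 iTgMir483 livers, with 1 point per liver and the mean with its SD beside the points except for Slc7a11. Hmox1 lies between 17.6 and 27.9 CPM in controls and between 30.1 and 89.5 CPM in iTgMir483 livers, Txnrd1 is separated in the other direction, and Nqo1, Gclm and Gsr overlap.

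The transcription factor is described first. Nfe2l2 (chr2:75675513-75704641, minus strand, GRCm38) had a lowest, median and highest level of 62.1, 75.4 and 87.7 CPM in controls. In iTgMir483 livers these levels were 82.1, 91.8 and 127.0 CPM. A total of 5 iTgMir483 livers lay above every control, and the remaining one lay inside the control range. The mean went from 74.4 ± 9.30 CPM (SD, n = 6) to 95.9 ± 15.9 CPM (SD, n = 6), a log2 fold change of 0.36 with SE 0.116 and an adjusted p of 0.0406 (edgeR quasi-likelihood fit). This is a 1.29-fold difference with a 95% confidence interval from 1.08 to 1.53, below the 1.5-fold threshold at its centre. A two-sided exact permutation test on the log2 levels gave p = 0.00433. The adjusted p is close to its limit: it was at or over 0.05 in 11 of 20 alternative analyses, up to 0.0923, while the log2 fold change stayed between 0.27 and 0.42. The highest liver, iTgMir483 replicate 1, stood apart from the other 5, and without it the log2 fold change was 0.27 (adjusted p 0.0677).

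Keap1 (chr9:21229730-21239361, minus strand) spanned 51.9 to 66.1 CPM in controls and 47.2 to 60.8 CPM in iTgMir483 livers. The ranges overlapped broadly, and 2 iTgMir483 livers lay below every control. Its fold change was 0.944 with a 95% confidence interval from 0.830 to 1.07 (adjusted p 0.542), so that a change of the Keap1 transcript larger than 1.5-fold in either direction lies outside the interval. An antisense gene, Gm16754, overlaps Keap1, and which strand was counted is not given in the sources used here.

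Because these mice overproduce Mir483, the 3′ untranslated regions (UTRs) of the 10 genes were searched for seed matches. A microRNA pairs with its targets mainly through its seed, positions 2 to 8 from the 5′ end. Both mature products of the hairpin are shown from RefSeq (GRCm38.p6), with the seed in capitals. They lie on the minus strand of chromosome 7, miR-483-3p at chr7:142654932-142654952 and miR-483-5p at chr7:142654968-142654989.

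miR-483-3p: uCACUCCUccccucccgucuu

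miR-483-5p: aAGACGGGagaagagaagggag

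No member held a match of 7 or 8 bases to miR-483-3p in its longest annotated 3′ UTR (0 of 10 genes), whereas 17.6% of the 12098 tested genes with a 3′ UTR held one. A single member, Keap1, held such a match to miR-483-5p (1 of 10, against 4.23% of tested genes). It was an 8-base match (CCCGTCTA, whose first 7 bases pair with the whole seed and whose last is an A), a kind present in 0.372% of tested genes. The site lies in that 3′ UTR at chr9:21230056-21230063, and is shown in capitals, in the sense of the transcript, with 10 bases on each side from GRCm38. Shorter 6-base matches were found in Nqo1 for miR-483-5p (site chr8:107388280-107388285) and in Gclm for miR-483-3p (site chr3:122268213-122268218), and are shown in the same way. Such short matches are common, being present in 11.7% and 31.0% of tested genes respectively.

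Keap1 and miR-483-5p: gtatctgaaaCCCGTCTAttgtctctgc

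Nqo1 and miR-483-5p: aaacagatctCCGTCTcattctttct

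Gclm and miR-483-3p: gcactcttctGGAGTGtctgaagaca

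None of these 3 genes was counted as changed, with fold changes of 0.944 for Keap1, 1.03 for Nqo1 and 1.01 for Gclm. A seed match is a description of the letters, and binding was not measured. The changed gene, Hmox1, held no match of 6 bases or more to either product, and neither did Nfe2l2 or Txnrd1.

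Hmox1 encodes the inducible enzyme that opens the haem ring, releasing iron, carbon monoxide and biliverdin, and is transcribed in hepatocytes under stress and in macrophages that digest red cells. It lies at chr8:75093621-75100589 on the plus strand. In controls its lowest, median and highest levels were 17.6, 21.7 and 27.9 CPM. In iTgMir483 livers they were 30.1, 42.4 and 89.5 CPM. Every iTgMir483 liver was above every control, and the iTgMir483 livers were also far more unequal among themselves. The mean rose from 22.5 ± 3.98 CPM (SD, n = 6) to 50.1 ± 23.1 CPM (SD, n = 6), with a log2 fold change of 1.15 with SE 0.243 and an adjusted p of 0.00556 (edgeR quasi-likelihood fit). The fold change was 2.22, with a 95% confidence interval from 1.55 to 3.19, and the two-sided exact permutation test gave 0.0022, the smallest p the design allows. The rise passed both thresholds in all 20 alternatives that kept these thresholds, with a log2 fold change between 0.91 and 1.27, the lowest without iTgMir483 replicate 4. Tested against a fold change of 1.5 in place of no change, Hmox1 did not pass (adjusted p 0.129, edgeR's glmTreat).

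Macrophage markers rose in the same livers. Of 12 markers of Kupffer cells and other macrophages, 11 were tested and 10 were higher in iTgMir483 livers. This is 90.9%, against 8.41% of all genes tested. Among those of highest level, Cd5l went from 97.2 ± 8.58 to 199.0 ± 117 CPM (SD, n = 6 each, adjusted p 0.0140) and Clec4f, a Kupffer cell lectin, from 107.1 ± 24.3 to 177.0 ± 38.0 CPM (SD, n = 6 each, adjusted p 0.00814), both by edgeR's quasi-likelihood test. The remaining tested marker, Vsig4, had an adjusted p of 0.0527, and Gpnmb was too low to be tested. None of the 12 was at 0 throughout. The summed level of the list lay between 361.3 and 532.0 CPM in controls and between 556.2 and 1611 CPM in iTgMir483 livers, without overlap. In bulk tissue, more cells of a type and more RNA per cell cannot be told apart.

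Among iTgMir483 livers, those with the most and the least Hmox1 also had the highest and the lowest macrophage sum. The iTgMir483 liver with the most Hmox1, replicate 4 with 89.5 CPM, also had the highest sum, and the one with the least, replicate 3 with 30.1 CPM, had the lowest sum of its group. Replicate 6 came next to the top in both, with 65.1 CPM of Hmox1 beside a sum of 918.5 CPM. The controls showed no such order: replicate 6 had the most Hmox1 (27.9 CPM) and the lowest sum (361.3 CPM), and replicate 3, with the highest sum (532.0 CPM), had 22.4 CPM of Hmox1. Expressed as a percentage of the macrophage sum, Hmox1 had a lowest, median and highest value of 4.04, 4.80 and 7.72 in controls. In iTgMir483 livers these values were 4.67, 5.50 and 7.09, inside the control range. This ratio was chosen after its parts were seen and is given without a test. The part of macrophages in the rise of Hmox1 was not tested.

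**Figure D2:**
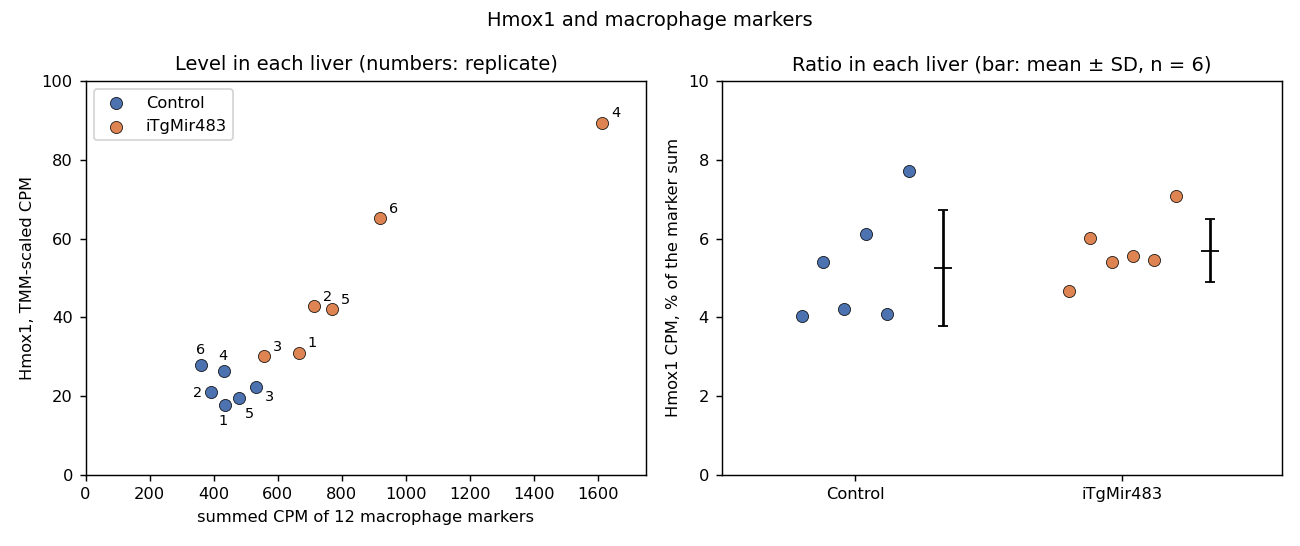
Hmox1 (vertical axis, CPM) against the summed level of 12 macrophage markers (horizontal axis, CPM) in each of the 12 livers, with replicate numbers beside the points, and, in the second panel, Hmox1 as a percentage of that sum by group with the mean and SD (n = 6). The 6 control livers sit between 361.3 and 532.0 on the horizontal axis, and iTgMir483 replicate 4 is farthest along both axes, at 1611 and 89.5 CPM, while the percentages of the groups overlap.

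Other cell type markers were read beside these values, and beside the 8.41% of all genes tested that were higher and 2.73% that were lower. The summed neutrophil markers lay between 4.02 and 7.11 CPM in controls and between 7.56 and 28.5 CPM in iTgMir483 livers (3 of 4 tested higher). Ly6g was too low to be tested, at 0 in every control and at a mean of 0.0209 CPM in iTgMir483 livers. The bile duct sum went from a range of 39.6 to 64.3 CPM to one of 76.1 to 118.9 CPM (4 of 7 tested higher). Red cell and erythroid markers, whose haem is a substrate of Hmox1, overlapped between 132.1 to 242.4 CPM in controls and 87.2 to 384.4 CPM in iTgMir483 livers, with 0 of 5 tested changed. Stellate cell markers had 0 of 8 changed. The hepatocyte sum, led by Alb, lay between 121370 and 169420 CPM in controls and between 61478 and 129870 CPM in iTgMir483 livers, with Cps1 lower and the other 7 not counted as changed, which places the tissue as liver in every library. The part of these cell types in the results was not tested.

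The genes whose profile over the 12 livers was most like that of Hmox1 were Lgals3, Ldb1 and Clec4n, out of 12485 tested genes with a mean of at least 1 CPM. Their mean absolute difference from Hmox1, each as log2 CPM above the control mean, was 0.19, 0.19 and 0.19. Lgals3 had 5.95 ± 0.980 CPM in controls and 12.0 ± 6.13 CPM in iTgMir483 livers (SD, n = 6 each). Lgals3 and Clec4n are galectin-3 and a myeloid C-type lectin, and Ldb1 is a widely expressed cofactor of LIM-domain proteins.

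Txnrd1, cytosolic thioredoxin reductase 1, keeps thioredoxin reduced at the expense of NADPH (chr10:82833951-82897712, plus strand). Its lowest, median and highest levels were 140.4, 153.8 and 161.2 CPM in controls. In iTgMir483 livers they were 94.4, 123.5 and 131.0 CPM. All 6 iTgMir483 livers lay below all 6 controls, whose coefficient of variation was 5.54%, the lowest of the 9 tested members. The mean went from 150.9 ± 8.36 CPM (SD, n = 6) to 116.8 ± 14.7 CPM (SD, n = 6). The log2 fold change was -0.37 with SE 0.0959 and an adjusted p of 0.0161 (edgeR quasi-likelihood fit), or 0.774-fold with a 95% confidence interval from 0.671 to 0.892. The two-sided exact permutation p was the smallest possible, 0.0022. The difference is below the 1.5-fold threshold and so was not counted as a change, but its adjusted p stayed under 0.05 in all 20 alternatives, between 0.00103 and 0.0398.

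Srxn1, sulfiredoxin, repairs peroxiredoxins whose active cysteine has been over-oxidised, and works beside Txnrd1 (chr2:152105516-152111376, plus strand). Its lowest, median and highest levels were 36.5, 65.8 and 77.9 CPM in controls and 51.1, 67.9 and 83.0 CPM in iTgMir483 livers. The groups overlapped, with the lowest value of all 12 livers in control replicate 1. Srxn1 had a fold change of 1.06 with a 95% confidence interval from 0.823 to 1.37 (adjusted p 0.770).

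Gclc and Gclm encode the catalytic and modifier subunits of glutamate-cysteine ligase, the rate-limiting step of glutathione synthesis. Gclc (chr9:77754535-77794485, plus strand) varied more than any other tested member among controls, with a coefficient of variation of 43.4%. Its levels in control replicates 1 to 6 were 411.0, 264.9, 157.5, 202.1, 159.7 and 169.3 CPM. In iTgMir483 replicates 1 to 6 they were 266.8, 92.7, 164.7, 96.7, 167.9 and 139.2 CPM. Replicate 1 was the highest liver in each group, and 3 iTgMir483 livers lay below every control. The fold change was 0.680 with a 95% confidence interval from 0.447 to 1.04 (log2 fold change -0.56 with SE 0.284, adjusted p 0.186 in the edgeR quasi-likelihood fit; two-sided exact permutation p = 0.115). A fall of 1.5-fold lies inside this interval. Without iTgMir483 replicate 1 Gclc passed both thresholds (log2 fold change -0.78, adjusted p 0.0491), without control replicate 1 it was at -0.30 (adjusted p 0.407), and without both of these livers it was at -0.53 (adjusted p 0.0742).

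Gclm (chr3:122245557-122270732, plus strand) had a lowest, median and highest level of 110.8, 119.6 and 178.8 CPM in controls and 112.9, 121.1 and 172.4 CPM in iTgMir483 livers. The ranges were nearly the same, and replicate 1 was again the highest liver in each group. The fold change was 1.01 with a 95% confidence interval from 0.825 to 1.24 (adjusted p 0.939). Gclm overlaps a pseudogene on its own strand, Gm6061, and Gm17494 on the other, so some of its reads may have been counted differently. How many was not measured.

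Gsr, glutathione reductase, returns oxidised glutathione to its reduced form (chr8:33652523-33698163, plus strand). Its lowest, median and highest levels were 55.1, 62.9 and 70.4 CPM in controls and 48.1, 57.4 and 64.2 CPM in iTgMir483 livers. A pair of iTgMir483 livers, 2 of 6, lay below every control. The fold change was 0.891 with a 95% confidence interval from 0.778 to 1.02 (adjusted p 0.222).

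Nqo1 encodes a quinone reductase and is a much used readout of Nrf2 activity (chr8:107388225-107403206, minus strand). Its level was low, at 7.97, 11.5 and 15.6 CPM for the lowest, median and highest control and 10.3, 12.1 and 13.5 CPM for the iTgMir483 livers. Every iTgMir483 value fell inside the control range. Nqo1 had a fold change of 1.03 with a 95% confidence interval from 0.835 to 1.27 (adjusted p 0.861), so a rise of Nqo1 as large as that of Hmox1 lies outside the interval.

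Slc7a11, the cystine importer that feeds glutathione synthesis in many cultured cells, was hardly transcribed in these livers (chr3:49892526-50443614, minus strand). It had 0 to 2 counts in controls and 0 to 3 counts in iTgMir483 livers. All 12 libraries were at or under the floor of 3 counts, and no fold change is given. Any difference was not detectable at this depth.

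**Figure D3:**
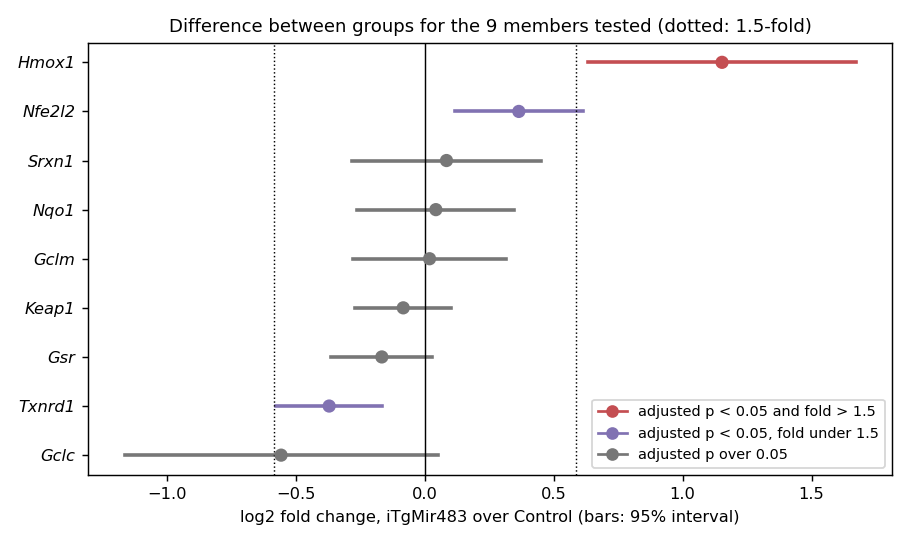
Log2 fold change (iTgMir483 over control, horizontal axis) of the 9 tested genes, with points for the estimate and lines for the 95% confidence interval of the edgeR fit. The interval of Hmox1 runs from 0.63 to 1.67, those of Nfe2l2 and Txnrd1 lie on opposite sides of 0, and the others include 0.

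Levels were compared between genes per kilobase of annotated exon, in CPM per kb. In controls Gclc was highest, at 60.4 ± 26.2 CPM per kb (SD, n = 6), and its lowest liver was above the highest liver of every other member. Gsr (22.8), Srxn1 (22.4), Txnrd1 (21.3), Gclm (20.3) and Nfe2l2 (19.6 CPM per kb) followed, and neighbours in this order overlapped. Hmox1 (12.9) and Keap1 (12.4) also overlapped with each other, Nqo1 followed at 7.57, and Slc7a11 was at 0.000819 CPM per kb. In iTgMir483 livers Hmox1 came to 28.6 ± 13.2 CPM per kb (SD, n = 6), second to Gclc at 41.1 and ahead of Nfe2l2 at 25.3 CPM per kb, with overlapping ranges.

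The livers did not order in the same way for different genes. Replicate 1 of the controls had the highest Nfe2l2, Gclc and Gclm of its group and the lowest Nqo1, Srxn1, Hmox1 and Gsr. Replicate 1 of the iTgMir483 livers likewise had the highest Nfe2l2, Gclc and Gclm of its group. No liver was above its group mean for all 9 tested genes, the number ranging from 0 in control replicate 5 to 7 in control replicate 4. The high Nfe2l2, Gclc and Gclm were common to both livers numbered 1. The low Nqo1 was not, since iTgMir483 replicate 1 had the highest Nqo1 of its group (13.5 CPM). For Srxn1, Hmox1 and Gsr, iTgMir483 replicate 1 lay just above the lowest liver of its group. The levels were 51.8 against 51.1 CPM for Srxn1, 31.0 against 30.1 CPM for Hmox1 and 48.6 against 48.1 CPM for Gsr. The labels do not say that a number marks a litter or a day.

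**Figure D4:**
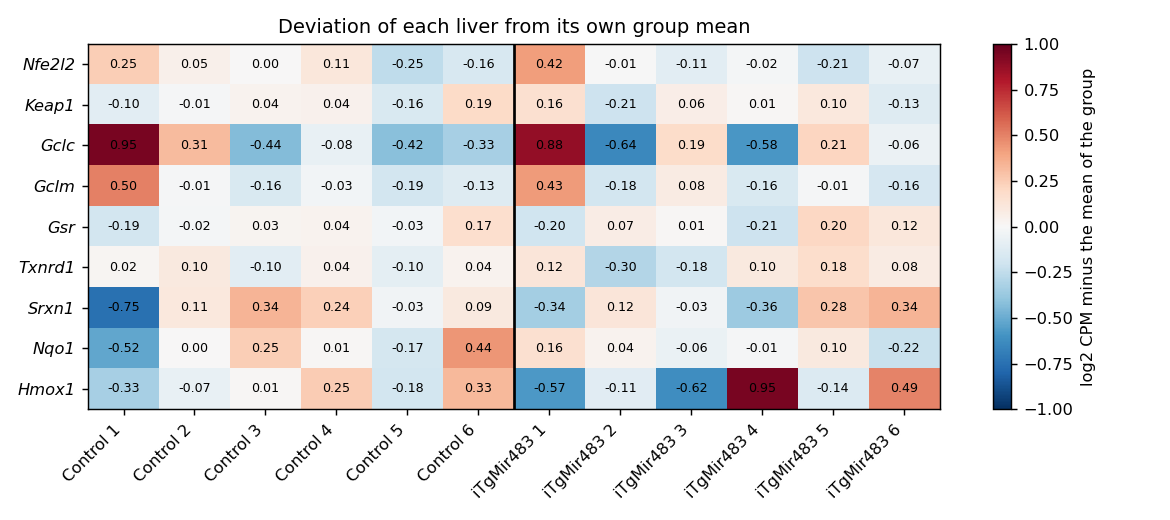
Log2 CPM of each of the 9 tested genes minus the mean of its own group, by liver, on a colour scale centred on 0. Replicate 1 of both groups is high for Gclc, Gclm and Nfe2l2, and control replicate 1 is low for Srxn1, Nqo1 and Hmox1.

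Antioxidant response elements were looked for by their core letters, TGACNNNGC, on both strands (read as GCNNNGTCA on the other), in windows of 300 bases from RefSeq (GRCm38.p6) that run from 250 bases before a transcription start to 50 after it. These letters occur in 12.4% of the 32851 windows. A window was held for 7 members, 9 windows in all with 3 for Txnrd1, and 4 of these members had a match in at least 1 window. The 12.4% is a share of windows and not of genes, so this count of members cannot be set directly against it. In Srxn1 the match lay after the start. The others lay before the start and are shown in the sense of the gene, with the match in capitals and 10 bases on each side, because they belong to the pathway's own factor and to genes of its glutathione and thioredoxin arms.

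Nfe2l2, chr2:75704885-75704913, minus strand: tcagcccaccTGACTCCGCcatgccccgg

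Gclm, chr3:122245413-122245441, plus strand: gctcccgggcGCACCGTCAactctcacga

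Txnrd1, chr10:82859104-82859132, plus strand: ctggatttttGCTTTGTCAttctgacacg

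Genes with a match went both ways, Nfe2l2 with a log2 fold change of 0.36, Gclm with 0.02 and Txnrd1 with -0.37. Known elements of this family often lie farther from the start than these windows reach. Keap1, Nqo1 and Slc7a11 had no match in theirs, which says nothing of elements elsewhere.

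The rest of the pathway was read from 7 lists, of which genes counted as changed and the most abundant of the others are named. Each count stands beside the 11.1% of all genes tested that were counted as changed, 8.41% higher and 2.73% lower. Cul3, Dpp3, Gss, Pgd, Tkt, Hmox2, Alas1, Slc48a1, Blvra, Blvrb, Abcc3, Pir, Sod1, Sod2 and Ncf1 are named beside them after their values were seen. Among the partners and regulators of Nrf2, 0 of 13 tested genes were counted as changed, with a median log2 fold change of -0.15. The list holds the small Maf partners, the Bach repressors, the ubiquitin ligase that Keap1 serves and the competitors of Nrf2 for Keap1. Sqstm1, the autophagy receptor that can displace Nrf2 from Keap1, had a log2 fold change of -0.14 (adjusted p 0.375), and the related factor Nfe2l1 one of -0.31 (adjusted p 0.102). The 2 genes that passed the adjusted p alone were Cul3, the scaffold of the ligase, at -0.31 (adjusted p 0.0317), and Dpp3, a Keap1-binding peptidase, at -0.38 (adjusted p 0.0131).

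Glutathione genes split. Of 12 tested, 1 was higher and 2 were lower, or 25.0% against 11.1% of all genes tested. The median log2 fold change was -0.06. Gpx4, which reduces lipid hydroperoxides in membranes, rose from 157.8 ± 12.1 to 249.7 ± 33.5 CPM (SD, n = 6 each), without overlap between groups and with a log2 fold change of 0.66 with SE 0.105 and an adjusted p of 0.00117 (edgeR quasi-likelihood fit). Gpx1, the abundant cytosolic peroxidase, fell from 1410 ± 132 to 894.4 ± 236 CPM (SD, n = 6 each, log2 fold change -0.66, adjusted p 0.0133). Glutaredoxin, Glrx, fell from 68.4 ± 15.7 to 37.3 ± 10.2 CPM (SD, n = 6 each, log2 fold change -0.88, adjusted p 0.00878). Oplah and Hagh, the most abundant genes of the list that did not pass both thresholds, had log2 fold changes of -0.26 (adjusted p 0.278) and -0.47 (adjusted p 0.00853). Gss, which adds the last residue of glutathione after the ligase of Gclc and Gclm, had a log2 fold change of -0.0033 with SE 0.0938 and an adjusted p of 0.985.

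Among thioredoxins and peroxiredoxins, 1 of 13 tested genes changed. It was Txnip, an inhibitor of thioredoxin that responds to glucose, which fell from 334.7 ± 147 to 172.1 ± 60.6 CPM (SD, n = 6 each, log2 fold change -0.96, adjusted p 0.0424). Prdx1 and Prdx6, the most abundant peroxiredoxins of the list, had log2 fold changes of 0.07 and 0.02 (adjusted p 0.681 and 0.917). The call of Txnip was not stable: it was lost with limma-voom and on leaving out any of control replicates 2 to 6 or of iTgMir483 replicates 1, 2, 3, 5 and 6.

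In the list of NADPH supply, which feeds both Gsr and Txnrd1, 1 of 12 tested genes changed. G6pdx, the entry enzyme of the pentose phosphate pathway, rose from 5.12 ± 0.945 to 8.63 ± 2.80 CPM (SD, n = 6 each, log2 fold change 0.75, adjusted p 0.0161), a call lost without iTgMir483 replicate 4. The later enzymes Pgd and Tkt had log2 fold changes of 0.46 and 0.51 (adjusted p 0.0127 and 0.0297), below the fold threshold. H6pd and Idh1, the most abundant of the list, were at 0.17 and 0.01 (adjusted p 0.557 and 0.970).

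Genes of haem and iron handling, the neighbourhood of Hmox1, showed 0 of 9 tested changed, with a median log2 fold change of 0.07, and 1 changed without control replicate 1. The ferritin chains Fth1 and Ftl1, whose transcripts are among the most abundant of the list, were at 0.10 and -0.16 (adjusted p 0.631 and 0.367). Hmox2, the constitutive haem oxygenase, was at 0.07 (adjusted p 0.701). Alas1 had the lowest estimate of the list, -0.81, and did not pass the test (adjusted p 0.174). Slc48a1, a haem transporter, had non-overlapping groups at 0.33 (adjusted p 0.0121), below the fold threshold. Blvrb, a biliverdin reductase, was at -0.40 (adjusted p 0.0491), also below it. Blvra, the other biliverdin reductase of the list, was at 0.07 (adjusted p 0.749).

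Of 16 other Nrf2-responsive genes tested, 1 was higher and 0 were lower, with a median log2 fold change of -0.11. The count was 2 without control replicate 2, 3 or 6 or iTgMir483 replicate 3 or 4, and 3 without iTgMir483 replicate 1. The exporter Abcc4 rose from 6.49 ± 1.67 to 15.1 ± 5.16 CPM (SD, n = 6 each, log2 fold change 1.22 with SE 0.220, adjusted p 0.00251 in the edgeR quasi-likelihood fit), without overlap. Its relative Abcc3 went the other way, without overlap, at -0.58 (adjusted p 0.00572) and just short of the fold threshold, as did the iron-binding protein gene Pir at -0.53 (adjusted p 0.00653). Mgst1 and Abcc2, the most abundant of the list, were at -0.24 and 0.28 (adjusted p 0.290 and 0.202).

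The last list holds superoxide dismutases, catalase, methionine sulfoxide reductases and subunits of the phagocyte NADPH oxidase. Here 4 of 12 tested genes were higher and 1 was lower, or 41.7% against 11.1% of all genes tested. The median log2 fold change was 0.06. The higher genes included Cybb at 1.13 (adjusted p 0.00463) and Ncf1 at 1.06 (adjusted p 0.0192), whose products belong to the phagocyte oxidase, which makes superoxide in myeloid cells and does not remove it. They also included the extracellular dismutase Sod3, at 0.63 (adjusted p 0.0162), with overlapping groups. The dismutase gene Sod2 was lower without overlap, at -0.37 (adjusted p 0.00876), below the fold threshold, and Sod1 was at 0.11 (adjusted p 0.534). The macrophage and neutrophil marker sums given above were higher in the same livers, and their part was not tested. Msra, a methionine sulfoxide reductase, fell from 152.3 ± 10.6 to 83.7 ± 10.1 CPM (SD, n = 6 each, log2 fold change -0.86, SE 0.0953, adjusted p 0.000114), without overlap. The catalase gene Cat had a log2 fold change of -0.45 (adjusted p 0.109), and Selenop one of -0.06 (adjusted p 0.757).

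**Figure D5:**
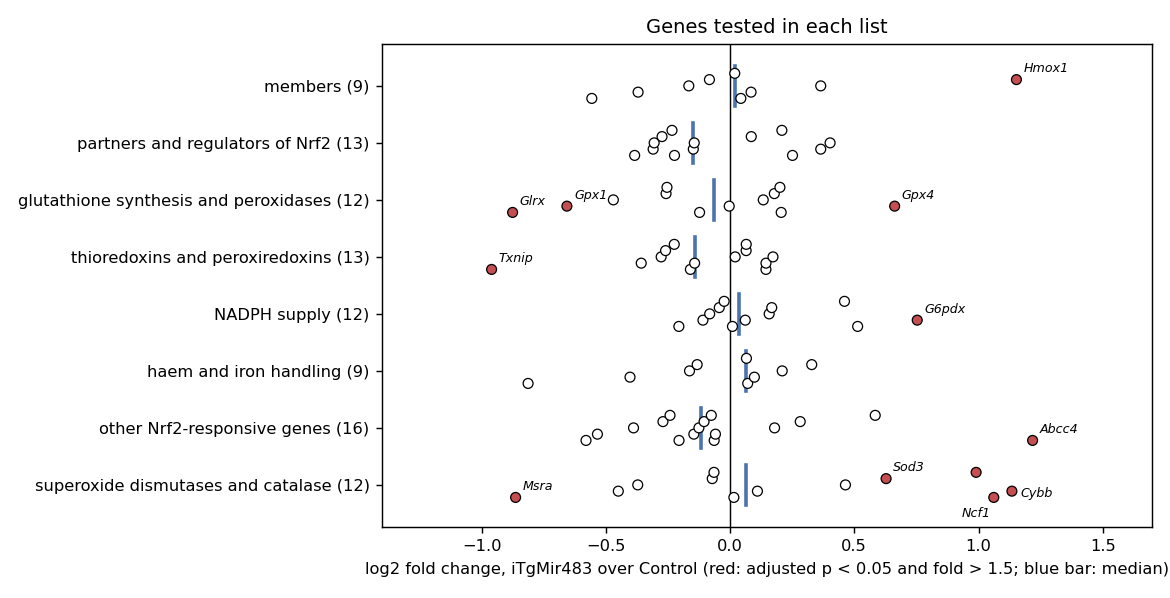
Log2 fold change (iTgMir483 over control, horizontal axis) of every tested gene in the member list and the 7 pathway lists (rows), with filled points for genes counted as changed and a bar at each list's median. The medians lie between -0.15 and 0.07, and the changed genes with the largest rises are Abcc4, Hmox1, Cybb and Ncf1.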

How the data were processed

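Livers of 6 iTgMir483 and 6 control females were compared, grouped by the sample titles. The deposited table holds raw gene counts, which the authors made from stranded poly(A) libraries by aligning paired reads to GRCm38 with STAR (named in the submitters' processing notes) and counting Ensembl genes. The strand column used is not given in the sources used here, so overlapping genes are uncertain, and 0 columns belonged to no sample. All pairs of libraries within a group differed beyond sampling noise (chi-square per gene of 15.9 or more), and each counted as 1 replicate.

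Symbols, exons and 3′ UTRs came from GENCODE M21 (GRCm38), which named 55141 genes and left 260 without a symbol. Genes were kept by filterByExpr, scaled by TMM and tested between groups by quasi-likelihood F-test in edgeR, without covariates (edgeR 4.0.16, limma 3.58.1, R 4.3.3). Steps were tested on simulated data, where 28.1% of 1.5-fold, 75% of 2-fold and 97.1% of 4-fold changes reached an adjusted p under 0.05. Many changes near the fold threshold were thus missed. Changed means an adjusted p under 0.05 and a fold over 1.5, as in the study. CPM on the log2 scale used a prior count of 2, and exact permutation tests ran over all 924 assignments of livers. Confidence intervals rest on the fitted standard errors. Counts at or under 3 in every library were treated as the floor, which covers counting error only.

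The 10 members and all lists were chosen with earlier results of these data known. All members were named, and from each list the changed genes (at most 4, by smallest p) and the 2 most abundant of the rest, with exceptions stated. Some genes that meet this rule are counted but not reported by name here. A symbol with more than 1 identifier (Nnt) used the first, and the listed Trfc matched no row. Alternatives covered scaling, filters, DESeq2 1.42.0, limma-voom, a replicate block, fold thresholds and left-out libraries.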

Additional observations from a re-analysis of the deposited data

Results flagged for a closer look

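In 18 groups of 6 livers (9 genes in 2 groups), the gap between the most extreme liver and the next, divided by the range, was compared with Dixon's 95% critical value, which chance passes in about 5% of groups, or 0.9 of these 18. It was passed in 2 groups, in both by a liver numbered 1. Nfe2l2 in iTgMir483 replicate 1 was at 127.0 CPM, with the other 5 livers between 82.1 and 94.6 CPM (ratio 0.723). Gclm in control replicate 1 was at 178.8 CPM, with the other 5 between 110.8 and 125.3 CPM (ratio 0.786).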

How the results depend on the processing

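With 6 livers a group, the intervals of Nqo1, Gclm, Srxn1, Keap1 and Gsr exclude changes of 1.5-fold, that of Gclc does not, and Slc7a11 was too low to test. Direction and call of Hmox1, Txnrd1, Nfe2l2, Keap1 and Gsr were the same in the 20 alternatives for each, whose log2 fold changes reached from 0.91 to 1.27 for Hmox1 and from -0.41 to -0.32 for Txnrd1. Gclc differed in 1 of 20 (without iTgMir483 replicate 1), with a range over left-out livers from -0.78 to -0.30. The near-zero differences turned sign in places: Nqo1 without replicate 1 of both groups (-0.079) and without control replicate 1 (-0.048, range -0.048 to 0.133), Srxn1 without control replicate 1 (-0.034, range -0.034 to 0.154), and Gclm without control replicates 3 (-0.013), 5 (-0.020) or 6 (-0.012) or iTgMir483 replicate 1 (-0.080, range -0.080 to 0.137). 

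With the adjusted p alone, 2 members were higher and 1 lower, 968 genes were lower, and 2 genes changed among the partners of Nrf2, 3 in NADPH supply, 2 in haem and iron handling and 3 among the other Nrf2-responsive genes. Tested against a fold of 1.5 (glmTreat), 167 genes were higher and 59 lower, 0 members were higher, and 0 genes changed in the glutathione, thioredoxin, NADPH, other Nrf2-responsive and superoxide lists, since that test asks for more than a difference from 0. The count of other Nrf2-responsive genes was 2 with RLE size factors, no filter, DESeq2, limma-voom and without replicate 1 of both groups. Limma-voom gave 0 thioredoxin genes, and leaving out replicate 1 of both groups gave 1 haem and iron gene. Leaving out single livers gave 911 to 1235 genes higher, 279 to 426 lower, 1 to 1 members higher, 0 to 1 members lower, and list counts of 0 to 0 (partners), 2 to 3 (glutathione), 0 to 1 (thioredoxins, NADPH, haem and iron), 1 to 3 (other Nrf2-responsive) and 4 to 6 (superoxide). The cause was not tested.

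Same-numbered livers are not said to be paired, and the correlation of their deviations from the group means over 13205 genes was 0.440 for the livers numbered 1 and 0.0339 to 0.167 for the others. With the replicate number as a block, Hmox1 was at 1.06 (adjusted p 0.00157), Gclc at -0.55 (adjusted p 0.0789), and 2 other Nrf2-responsive genes changed. The block changed the call of no member. Of 6 iTgMir483 livers, 1 was nearest to its same-numbered control.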
